A study of Mus musculus with 16 samples.

Results

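Zscan4, Tcstv and Zfp352 are genes switched on in the two-cell mouse embryo. They were followed across 16 arrays of fibroblasts, ES cells and iPS cells through all array probes whose gene name starts with Zscan4 or Tcstv or is Zfp352. The rule found 8 of the 41174 probes of the array, 2 named Zscan4c, 3 named Tcstv1, 1 named Tcstv3 and 2 named Zfp352, so 4 of the 28095 names in the array's gene name column. Each was printed as 1 spot. All 8 were among the 31423 probes tested, those well above background on at least 1 array by the scanner software's own mark. The mark is a per-spot call on 1 array, and both Zfp352 probes and 1 Zscan4c probe passed through the retroviral iPS line alone.

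The study introduced reprogramming factors into mouse embryonic fibroblasts (MEFs) on a human artificial chromosome, a vector that is kept beside the host chromosomes and does not integrate, and compared the resulting iPS clones with ES cells. There was 1 array of MEFs from C57BL/6 mice, and 2 of ES cells, the C57BL/6 line B6ES and the C57BL/6 x CBA line TT2. One array held 20D17, an iPS line made with retrovirus vectors on a C57BL/6 x DBA background, so its group is a single line. The vector iHAC1 carries 2 copies each of Klf4, c-Myc, Sox2 and Oct4, driven by the CAG promoter, and 4 clones made with it were measured (1-A3, 1-B, 1-C3 and 1-D6). The vector iHAC2 adds a p53 knockdown and 2 further copies of Oct4, and 4 of its clones were measured (2-B1, 2-C6, 2-E and 2-N). From these the study isolated 4 lines without the vector, called iHAC-free iPS (F-N7, F-E4, F-C5 and F-B1). All HAC-derived cells have the C57BL/6 background, and the study's methods describe microRNA mimics added during their reprogramming. Each array is a separate line or clone, so the spread within a group is the spread between clones.

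The Zscan4 genes encode proteins with a SCAN domain and zinc fingers, and are known for a burst of transcription in the late two-cell embryo. In ES cell culture they are switched on transiently in a small fraction of the cells at any time, and they are known for telomere elongation and genome stability there. The Tcstv genes are named as a two-cell-stage variable group and are transcribed in the same rare ES cell state, and Zfp352 is a zinc-finger gene of the early embryo. An array of a whole culture gives the sum over its cells, so fewer cells in that state and less RNA per cell cannot be told apart.

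The probes are shown because they decide which family members a value covers. Capitals mark the 40 bases that 2 of the Tcstv1 probes share, and of the Zscan4c and Zfp352 probes that lie nearest the end of the transcript only the first 30 bases are given.

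Zscan4c A_52_P302671: tcttgacagaagcctggcattccctctgac
Zscan4c A_52_P363843: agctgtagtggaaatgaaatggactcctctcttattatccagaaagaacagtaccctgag
Tcstv1 A_52_P66425: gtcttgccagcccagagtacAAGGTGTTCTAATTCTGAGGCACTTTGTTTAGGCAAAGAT
Tcstv1 A_51_P481768: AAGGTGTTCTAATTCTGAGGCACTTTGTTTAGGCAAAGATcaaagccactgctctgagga
Tcstv1 A_51_P481777: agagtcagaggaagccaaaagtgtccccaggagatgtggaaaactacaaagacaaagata
Tcstv3 A_51_P143200: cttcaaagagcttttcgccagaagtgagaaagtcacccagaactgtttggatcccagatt
Zfp352 A_51_P136390: accactgcaacctgactgtccacaaacaat
Zfp352 A_52_P106585: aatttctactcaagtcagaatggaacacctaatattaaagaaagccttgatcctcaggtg

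The 2 Zscan4c probes lay on mm9 at chr7:11595698-11595757 (A_52_P302671) and chr7:11594425-11594484 (A_52_P363843). The genomic distance between them, 1273 bases, equals the distance between their positions in the transcript, so no intron lies between them. The files list only Zscan4c among RefSeq genes for A_52_P302671, and both Zscan4c and Zscan4d for A_52_P363843. RefSeq (GRCm38.p6) has 9 Zscan4 entries, of which 4 are protein coding and 5 are pseudogenes, so a Zscan4c value may include RNA of close copies. The Zfp352 probes lay at chr4:89891957-89892016 (A_51_P136390) and chr4:89891441-89891500 (A_52_P106585), and the genomic and transcript distances were again equal, at 516 bases. The Tcstv probes were placed by the files on an unassigned contig, chrUn_random, at 37901 to 37959 (A_52_P66425), 3399 to 3458 (A_51_P481777) and 3205 to 3264 (A_51_P143200), and A_51_P481768 had no position. The files listed A_51_P481777 for 3 RefSeq genes, Tcstv1, Tcstv3 and AF067061, so its signal cannot be assigned to 1 of them.

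The RefSeq promoter table held 5 promoters of these families, those of Zscan4b, Zscan4c, Zscan4d, Zscan4f and Zfp352. The 250 bases before the Zscan4c start are shown, with TATAAA in capitals, because the Zscan4 promoters in the table are close copies of one another.

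Zscan4c promoter (GRCm38.p6, chr7:11005495-11005744, plus strand): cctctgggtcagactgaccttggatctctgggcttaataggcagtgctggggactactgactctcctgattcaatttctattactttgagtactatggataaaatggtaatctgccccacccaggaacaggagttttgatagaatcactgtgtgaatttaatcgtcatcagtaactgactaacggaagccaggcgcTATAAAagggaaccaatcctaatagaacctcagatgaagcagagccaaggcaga

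On either strand TATAAA stood in 4063 of the 32851 windows of this length, or 12.4%, and in 4 of the 5 promoters here, all of them Zscan4. Over their best ungapped alignment the Zscan4c and Zscan4f windows were identical at 226 of 227 bases. The other pairs of Zscan4 windows were identical at 94.7% to 97.2% of the aligned bases.

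Each value below is a level on the log2 scale, the processed signal of the probe minus the 75th percentile of its array, so 0 is the level of a probe at that percentile. The levels of different probes are not comparable with each other. The scanner software marked 54.2% to 65.8% of each array's spots as well above background, and no spot was saturated. The share was 54.2% to 59.9% on the iHAC2-iPS arrays and 59.4% to 63.0% on the iHAC-free iPS arrays. On the MEF, ES, 20D17 and iHAC1-iPS arrays it was 61.7% to 65.8%. The arrays lie on 4 slides and were scanned in 2 sessions: MEF, ES, 20D17 and iHAC1-iPS arrays in the first, iHAC2-iPS and iHAC-free iPS arrays in the second. Session and group therefore cannot be told apart wherever an array of the first session is compared with one of the second. Of the 8 pluripotent markers listed, 6 were on the array, and their summed level, on a linear scale relative to the 75th percentile, was 401 and 538 in the ES lines and 459 in 20D17. It ranged from 308 to 741 in iHAC2-iPS, from 457 to 563 in iHAC-free iPS and from 97.1 to 105 in iHAC1-iPS cells, and was 0.273 in MEFs. These markers include Pou5f1, the gene of Oct4, which both vectors also carry. The study reports more RNA from the vector's factors than from the endogenous genes in iHAC1-iPS and iHAC2-iPS cells. The part of the vector in these sums was not tested.

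The line 20D17 was the 1 array on which all 8 probes were well above background. On A_52_P302671, the Zscan4c probe with the higher mean, the level was 0.24 in 20D17, -2.61 in B6ES and -4.24 in TT2. It ranged from -6.54 to -5.13 in the iHAC1-iPS clones, from -6.79 to -5.78 in the iHAC2-iPS clones and from -6.40 to -5.01 in the iHAC-free lines, and was -8.01 in MEFs. The probe was well above background in 20D17, in both ES lines and in F-B1, and on no other array. The signals behind these marks were 620 ± 62.1 in 20D17, 79.6 ± 8.39 in B6ES, 28.9 ± 3.74 in TT2 and 24.1 ± 4.88 in F-B1, where the error is the scanner software's own estimate for 1 spot. The error of 1 spot says nothing of the spread between cultures of a line. The second Zscan4c probe, A_52_P363843, was well above background in 20D17 alone, at -2.08. Its next highest level was -5.31 in B6ES, and the remaining arrays lay between -8.09 in MEFs and -6.35 in 2-B1.

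**Figure D1:**
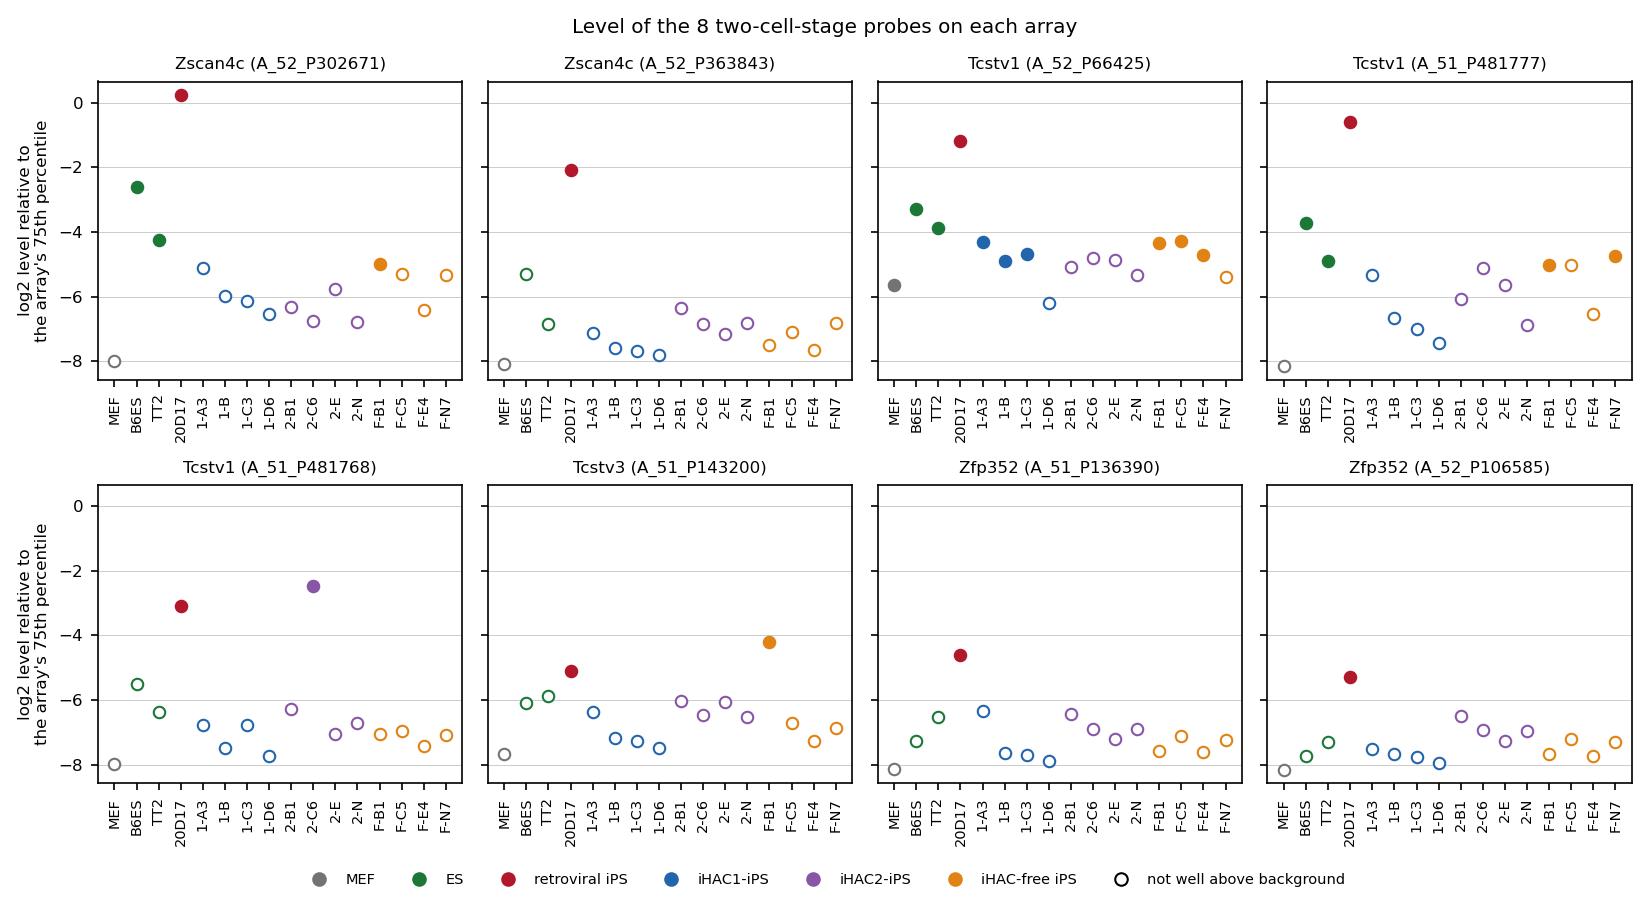
Log2 level of the 8 probes relative to the 75th percentile of the array (y axis) on each of the 16 arrays (x axis), coloured by group. Each point is 1 array, and open points are not well above background. The retroviral line 20D17 is filled in every panel, and in 3 of them, the second Zscan4c probe and both Zfp352 probes, it is the 1 filled point. Of the other 5 panels it is the highest point in 3, and the exceptions are A_51_P481768 in 2-C6 and A_51_P143200 in F-B1.

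Of the 3 Tcstv1 probes, A_51_P481777 and A_52_P66425 had the same order at the top. On A_51_P481777, the probe shared by 3 Tcstv family genes, the level was -0.59 in 20D17, -3.73 in B6ES and -4.90 in TT2. In the iHAC-free lines it was -5.02 in F-B1, -5.04 in F-C5, -6.53 in F-E4 and -4.74 in F-N7, and F-B1 and F-N7 were well above background. F-N7 thus reached the level of TT2, and these 2 groups overlapped. The levels in the iHAC1-iPS clones, from -7.45 to -5.32, and the iHAC2-iPS clones, from -6.89 to -5.13, were not well above background on any array, nor was MEF at -8.15.

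A_52_P66425 was the most widely detected of the probes, well above background on 10 of the 16 arrays. Its level was -1.18 in 20D17, -3.30 in B6ES and -3.87 in TT2. It was -4.31 in 1-A3, -4.90 in 1-B, -4.70 in 1-C3 and -6.21 in 1-D6, of which 1-D6 was not well above background. In the iHAC-free lines it was -4.34 in F-B1, -4.27 in F-C5, -4.72 in F-E4 and -5.39 in F-N7, the last not well above background. No iHAC2-iPS array passed, with levels from -5.33 to -4.81, although MEF did at the lower level of -5.65. Fibroblast RNA thus also gave signal on this probe. Failing the mark on an iHAC2-iPS array therefore does not show a lower level than on an array that passed.

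A_51_P481768 shares 40 of its 60 bases with A_52_P66425 but gave another order. It was -3.09 in 20D17 and higher, at -2.48, in the iHAC2-iPS clone 2-C6, and these were the 2 arrays on which it was well above background. On A_52_P66425 the same clone lay at -4.81, within the range of the other iHAC2-iPS clones. The 2 probes therefore disagreed on 2-C6. The signal of that spot was 120 ± 13.5.

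The Tcstv3 probe A_51_P143200 was well above background on 2 arrays, at -4.19 in F-B1 and -5.09 in 20D17, with signals of 42.6 ± 6.69 and 15.5 ± 3.0. The other 3 iHAC-free lines lay between -7.27 and -6.72 and the ES lines at -6.08 and -5.86. This was the 1 member highest in an iHAC-free line.

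Zfp352 was measured above background in 20D17 alone, by both of its probes. On A_51_P136390 the level was -4.61 in 20D17 and at most -6.34 elsewhere, and on A_52_P106585 it was -5.29 in 20D17 and at most -6.49 elsewhere. The signals in 20D17 were 21.6 ± 3.02 and 13.5 ± 2.38, close to the limit of detection.

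How far 20D17 stood from the rest was measured as its level minus that of the highest of the other 15 arrays. With 1 array this line allows no test, and the sizes are a description. For the 5 members that another array also measured above background, the difference was 3.14 for A_51_P481777, 2.84 for A_52_P302671, 2.12 for A_52_P66425, -0.60 for A_51_P481768 and -0.90 for A_51_P143200, on the log2 scale. So 3 of these 5 were at least 2-fold above every other array, beside 57 of the 31259 probes that another array measured, or 0.182%. The Tcstv1 probe A_51_P481777 ranked 4, the Zscan4c probe A_52_P302671 7 and A_52_P66425 15 among those probes. The probes before them in rank included Gm5662, Gm428 and BC061212, named after their values were seen.

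The remaining 3 members were measured by 20D17 alone and entered the test through it, so that 20D17 stood highest on them was fixed by the filter. For these only a bound can be given, at least 9.34-fold over every other array for the Zscan4c probe A_52_P363843, and at least 2.10-fold and 1.32-fold for the Zfp352 probes A_51_P136390 and A_52_P106585. The excess on the Zfp352 probes was not kept with normexp background correction, as given below. Counted by their levels, without regard to background, 6 of 8 members were 2-fold above every other array, where 0.319% of the 31395 tested probes with a value on all arrays were. Nothing is read from that count.

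**Figure D2:**
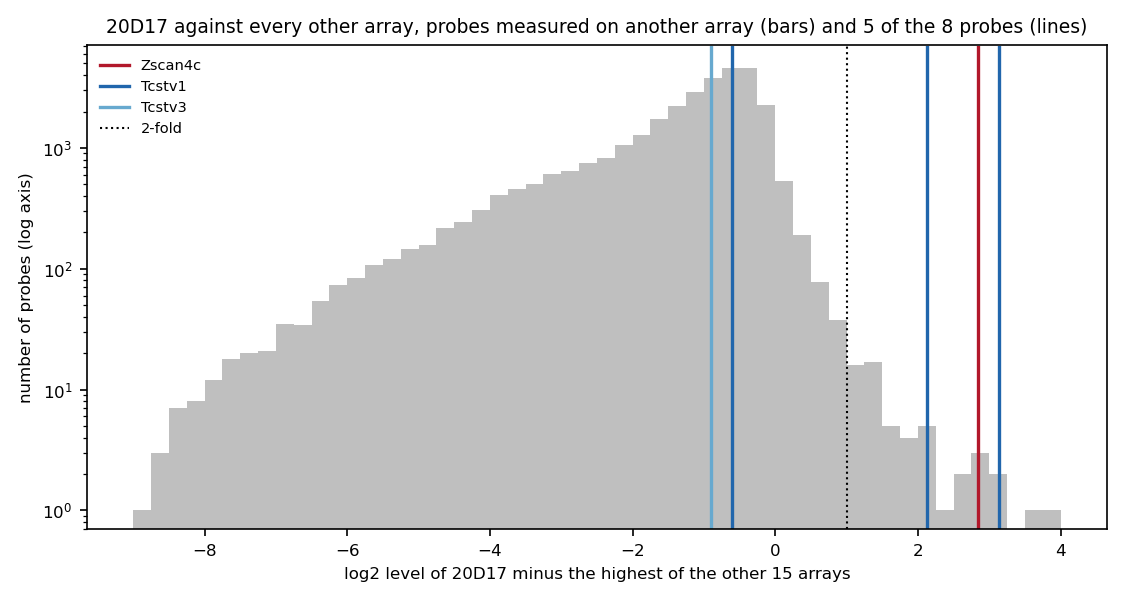
Number of probes (y axis, log scale) by the log2 level of 20D17 minus the highest of the other 15 arrays (x axis), for the 31259 probes that at least 1 of those arrays measured above background. Coloured lines mark the 5 members among them and the dotted line 2-fold. Of the 5, 3 lie beyond it and 2, the Tcstv1 probe A_51_P481768 and the Tcstv3 probe, lie below 0.

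For 3 probes both ES lines were well above background, and the fold of 20D17 over their mean was 12.6 for the Zscan4c probe A_52_P302671, 13.2 for the Tcstv1 probe A_51_P481777 and 5.30 for A_52_P66425. Where the ES lines were not well above background the fold is a bound, at least 15.9-fold for the Zscan4c probe A_52_P363843, 7.22-fold for A_51_P481768, 3.26-fold and 2.60-fold for the Zfp352 probes and 1.85-fold for Tcstv3. The bound sets the level of the 20D17 array against the lowest signal well above background on each ES array, or the probe's own value where that is higher. That lowest signal is taken over all probes of the array and is not a detection limit of the spot. Every fold given as at least follows such a rule and is not a certain minimum. The ES lines and the iHAC1-iPS clone 1-D6 were hybridized on the slide of 20D17. On 3 probes the highest of those 3 arrays was B6ES, well above background, and 20D17 was 7.17-fold higher for A_52_P302671, 8.82-fold for A_51_P481777 and 4.36-fold for A_52_P66425. On the other 5 none of the 3 arrays measured the probe, and the bounds ran from at least 1.71-fold for Tcstv3 to at least 9.34-fold for A_52_P363843.

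With normexp background correction on the mean spot intensity, which adds an offset of 50, the difference from the highest other array was 2.20 for the Zscan4c probe A_52_P302671, 1.95 for A_51_P481777 and 1.26 for A_52_P66425, so the count of 3 of 5 was unchanged. Of the members that 20D17 alone measured, A_52_P363843 had a difference of 1.23. The Zfp352 probes had 0.050 (A_51_P136390) and -0.015 (A_52_P106585), so 20D17 was not the highest array on the latter. Markers of fibroblasts and feeder cells, 8 of 8 on the array, summed to a level of 276 in 20D17, 52.2 and 148 in the ES lines and 304 in MEFs. Markers of trophectoderm, 7 of 7 on the array, summed to 98.4 in 20D17, with Elf5 not above background, and to 43.7 and 80.6 in the ES lines. The part of these cell types in the result was not tested. In MEFs 7 of the 8 two-cell-stage probes were not well above background, the exception being A_52_P66425.

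The HAC-derived cells were then compared with ES cells in a limma fit of all arrays, in which a probe counted as called when its Benjamini-Hochberg adjusted p was below 0.05 and the groups differed 2-fold or more. In iHAC1-iPS cells 4 of 8 probes were called lower than in ES cells, where 7.39% of the tested probes were called lower. The level of the Zscan4c probe A_52_P302671 was -5.95 ± 0.60 (SD, n = 4) in iHAC1-iPS and -3.42 ± 1.15 (SD, n = 2) in ES cells, a difference of -2.53 with a standard error of 0.52 and a limma adjusted p of 0.0058. Since no iHAC1-iPS array was well above background, ES cells were at least 5.56-fold higher. The Tcstv1 probe A_51_P481777 differed by -2.30 (SE 0.66, limma adjusted p = 0.028), and ES cells were at least 3.35-fold higher. A_52_P66425, measured in 3 of the 4 clones, differed by -1.44 (SE 0.45, limma adjusted p = 0.041). The 2 groups did not overlap on these 3 probes. They also did not overlap on A_52_P363843, A_51_P481768 and the Tcstv3 probe, which neither group measured above background. The share of all probes without overlap was not computed, so nothing is read from this.

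The fit also called the Zscan4c probe A_52_P363843, with a limma adjusted p of 0.018, but none of these 6 arrays was well above background on it and no fold is given. The other 4 probes were not called. The median difference over the 8 probes was -1.35, beside 0.02 over all tested probes. It includes probes that neither group measured above background, so nothing is read from it. On the slide that held both groups, the clone 1-D6 was not well above background on these 3 probes, and the mean of the ES lines was at least 7.46-fold higher on A_52_P302671, 4.02-fold on A_51_P481777 and 6.17-fold on A_52_P66425. These calls depended on single arrays. None was kept without B6ES, which leaves 1 ES array and a difference of -1.72 for A_52_P302671, beside -3.35 without TT2. The call of A_52_P66425 was also lost when any of TT2, 1-B or 1-D6 was left out. That of A_51_P481777 was lost without 1-C3 and without 1-D6. The count was 0 with normexp, 2 with slide as a block and 1 when the fit held these 2 groups alone. The summed pluripotent markers moved the same way between these groups, as given above. The 8 fibroblast and feeder markers summed to 188 to 474 in iHAC1-iPS and 52.2 to 148 in ES cells, and the 7 trophectoderm markers to 0.988 to 22.3 and 43.7 to 80.6, with Elf5 and Hand1 above background in no iHAC1-iPS clone. The part of these in the result was not tested.

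In iHAC2-iPS cells 1 of 8 probes was called lower than in ES cells, where 3.27% of the tested probes were. This was again the Zscan4c probe A_52_P302671, at -6.42 ± 0.47 (SD, n = 4), which differed from ES cells by -2.99 (SE 0.52, limma adjusted p = 0.0082), and ES cells were at least 5.22-fold higher. The Tcstv1 probes A_52_P66425 and A_51_P481777 differed by -1.44 and -1.62 with limma adjusted p-values of 0.059 and 0.12. The median over the 8 probes was -0.51, beside 0.05 over all tested probes. Its middle values, A_52_P363843 at -0.72 and the Tcstv3 probe at -0.30, were well above background in neither group. Nothing is read from that median. In this limma fit 4 of the 8 had an unadjusted p under 0.05, as did 31.05% of all tested probes. Of these 4, the Zfp352 probe A_52_P106585 went the other way, by 0.60, and neither group measured it above background. Without B6ES, with normexp, or with these 2 groups alone in the fit, 0 probes were called, and quantile normalization called 3.

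In iHAC-free iPS cells 0 of 8 probes were called against ES cells by limma, where 0.366% of the tested probes were called in either direction. An unadjusted p under 0.05 was found for 3 of the 8 and for 20.5% of all tested probes. The Zscan4c probe A_52_P302671 was at -5.51 ± 0.61 (SD, n = 4), measured above background in 1 of the 4 lines, and differed from ES cells by -2.08 (SE 0.52, limma adjusted p = 0.076). All 4 iHAC-free lines lay below both ES lines on this probe, but the share of all probes without overlap was not computed. With slide as a random block the difference was -2.01 and the limma adjusted p 0.036, which made it a call. The Tcstv1 probes differed by -1.09 for A_52_P66425 and -1.02 for A_51_P481777, with limma adjusted p-values of 0.21 and 0.40. With normexp A_52_P302671 differed by -0.80 and A_52_P66425 by -0.57 (limma adjusted p = 0.049 and 0.042), both short of 2-fold. A_51_P481777 differed by -0.44 (limma adjusted p = 0.15) and missed both thresholds. The 3 comparisons with ES cells share the same 2 ES arrays, so their values are not independent of one another.

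**Figure D3:**
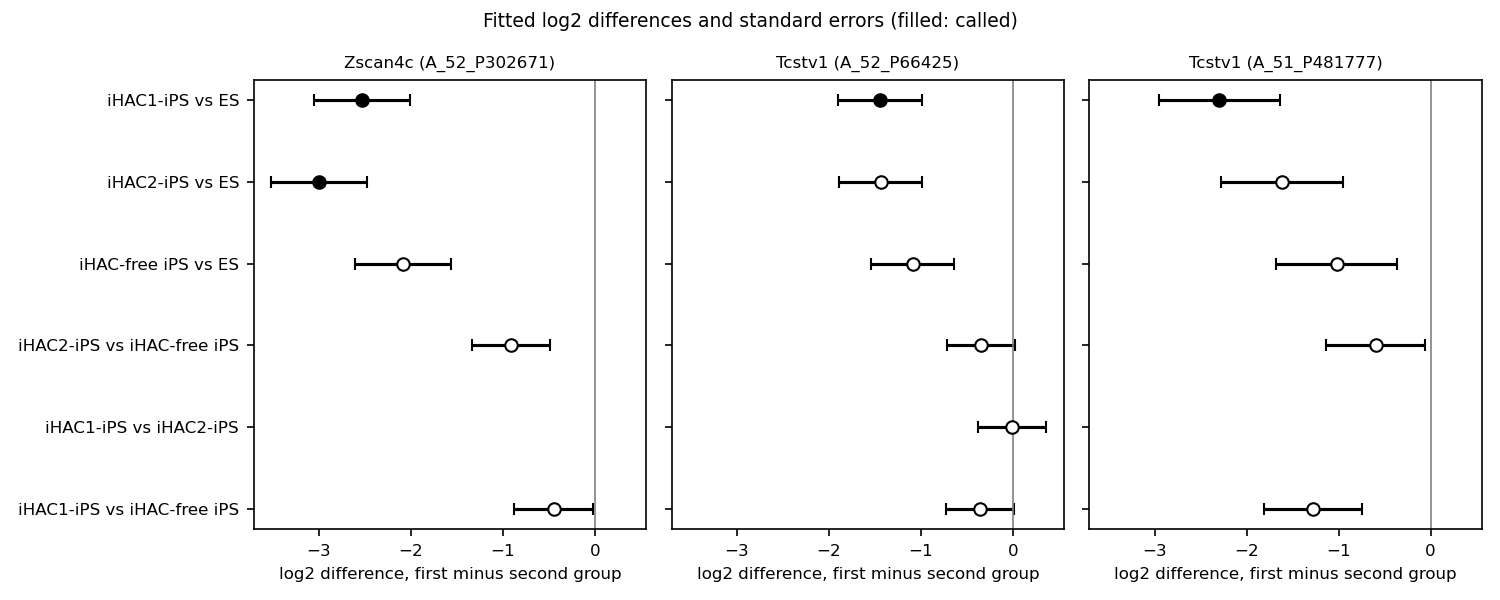
Fitted log2 difference, first minus second group (x axis), with its standard error (bars), for the 3 probes that 3 or more arrays measured above background, in the 6 comparisons (y axis). Filled points were called, and comparisons in which neither group was above background have no point. The calls lie in the comparisons of iHAC1-iPS and iHAC2-iPS cells with ES cells.

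Whether the loss of the vector was accompanied by a change was asked in the iHAC2-iPS clones and the iHAC-free lines derived from them, which share 2 slides. No member was called: limma called 0 of 8, against 0.770% of the tested probes, and 1 had an unadjusted p under 0.05, as did 18.55% of all tested probes. That 1 was the Zfp352 probe A_52_P106585, which neither group measured above background. No iHAC2-iPS clone measured the 3 probes compared here, so a line that did can be set against its clone only by a bound. Such a bound is not a certain minimum: on 2-B1 the probe A_52_P165856, at -4.19, was itself not well above background. On each clone's array a smaller share of spots was marked than on that of its line. On the Zscan4c probe A_52_P302671, the bound for F-B1 over 2-B1 was 1.69-fold. The other 3 lines, like their clones, were not well above background on it, and no difference is given.

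On the Tcstv1 probe A_51_P481777, the bounds were 1.68-fold for F-B1 over 2-B1 and 2.15-fold for F-N7 over 2-N. On A_52_P66425 the bounds were 1.68-fold for F-B1, 1.45-fold for F-C5 and 1.11-fold for F-E4. Of the 4 lines, F-B1 was well above background on all 3 probes. An exact two-sided sign-flip test over the 4 lines gave p = 0.25 for A_52_P302671 and A_52_P66425 and 0.38 for A_51_P481777 (adjusted p = 0.38 for each of the 3), where 4 lines allow no p below 0.125. It is void, since it includes lines that, like their clones, did not measure the probe. Within the slide of lines B and N the bounds for the iHAC-free lines over the clones were 1.56-fold on A_52_P302671 and 1.90-fold on A_51_P481777. Within the slide of lines C and E no array measured either probe. With normexp the direction of the fitted difference turned on all 3 probes.

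When iHAC1-iPS cells were set against iHAC2-iPS and then against iHAC-free iPS cells, limma called 0 of 8 probes both times, while 20.0% and 20.1% of the tested probes were called. An unadjusted p under 0.05 was found for 2 and 1 of the 8, and for 48.2% and 46.4% of all tested probes. The Tcstv1 probe A_51_P481777 came closest in the latter, with a difference of -1.28 (SE 0.54, limma adjusted p = 0.081), and was called without 1-A3 and without F-E4. Between iHAC1-iPS and iHAC2-iPS cells the Zfp352 probe A_52_P106585 had a limma adjusted p of 0.0071, but neither group was above background on it, so no fold is given.

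The probes moved together across the arrays in part through 20D17. Over 16 arrays Pearson's r of A_52_P302671 was 0.93 with each of the Tcstv1 probes A_51_P481777 and A_52_P66425, and without 20D17, over 15 arrays, it was 0.84 and 0.82. With the Zfp352 probes r was 0.74 and 0.62, and without 20D17 it was 0.34 and 0.0091. Many of these levels lie below the background mark and the arrays share slides and sessions, so these values are a description.

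Other genes known from the two-cell stage were taken from a list of 45 symbols, of which 18 genes were on the array and 15 were tested, each by its probe with the highest mean. Of these 15, limma called 1 lower in iHAC1-iPS and 2 lower in iHAC2-iPS than in ES cells, and 0 in iHAC-free iPS cells. It called 1 lower in iHAC2-iPS than in iHAC-free iPS cells, and 2 and 3 lower in iHAC1-iPS than in iHAC2-iPS and iHAC-free iPS cells, and none higher in any of the 6 comparisons. Of all tested probes 14.3%, 6.73% and 0.366% were called in either direction in the 3 comparisons with ES cells, 0.770% in that of the iHAC2-iPS clones with their iHAC-free lines, and 20.0% and 20.1% in the last 2. The median difference over the 15 genes was -0.39 for iHAC1-iPS and 0.22 for iHAC2-iPS against ES cells, beside 0.02 and 0.05 over all tested probes. The genes called were Calcoco2, Gm5662, Sp110 and Zfp750. Calcoco2, an autophagy receptor, carried 5 of the 9 calls, and differed from ES cells by -5.39 in iHAC1-iPS (SE 0.77, limma adjusted p = 0.00082) and by -3.07 in iHAC2-iPS cells (SE 0.77, limma adjusted p = 0.029), on the log2 scale. All 4 genes were well above background on all 16 arrays, MEFs included. Calcoco2 was at -1.87 in 2-B1, -1.99 in 2-C6 and -1.90 in 2-E. In 2-N it was at 1.39, near the ES lines at 2.15 and 1.81, so the mean of these clones describes none of them. Without B6ES, without TT2 or without 2-B1, limma called 0 of the 15 genes in iHAC2-iPS against ES cells. In iHAC2-iPS cells Calcoco2 differed by -2.98 from iHAC-free iPS cells (SE 0.63, limma adjusted p = 0.046), and with the clone of origin as a replicate block this call was lost (limma adjusted p = 0.30). It was also lost when any 1 of these 8 arrays other than 2-N was left out, with limma adjusted p-values from 0.070 to 0.14. The second Calcoco2 probe, A_51_P324524, differed by -2.95 between these groups (SE 0.64) with a limma adjusted p of 0.050, just above the threshold.

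In 20D17, 4 of the 15 list genes, and 3.14% of all probes, had their highest level of all arrays. The 4 were Dub1, BC061212, Gm5662 and Arg2, and Dub1 and BC061212 were at least 2-fold above every other array. Of the 31395 tested probes with a value on all arrays, 0.319% were. Dub1 is a deubiquitinating enzyme that RefSeq now names Usp17la, and BC061212 is the Pramel family gene Pramel37. These genes were named after their values in 20D17 were seen. Dub1 was at -0.94 in 20D17 and next highest in B6ES at -3.16 and TT2 at -4.04, and BC061212 was at -1.32 in 20D17 and next highest in B6ES at -4.25. Of Gm5662, the second probe, A_51_P514161, had the largest excess of all 31395 probes, at -0.26 in 20D17 and -4.01 in B6ES, a difference of 3.75. It was well above background on these 2 arrays only. The probe of Gm5662 that entered the test, A_52_P2540, was well above background on all 16 arrays with an excess of 0.49, so the probes of this gene disagree. For Dub1, BC061212 and this Gm5662 probe the order 20D17, B6ES was that of the Zscan4c probe A_52_P302671 and the Tcstv1 probes A_51_P481777 and A_52_P66425.

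**Figure D4:**
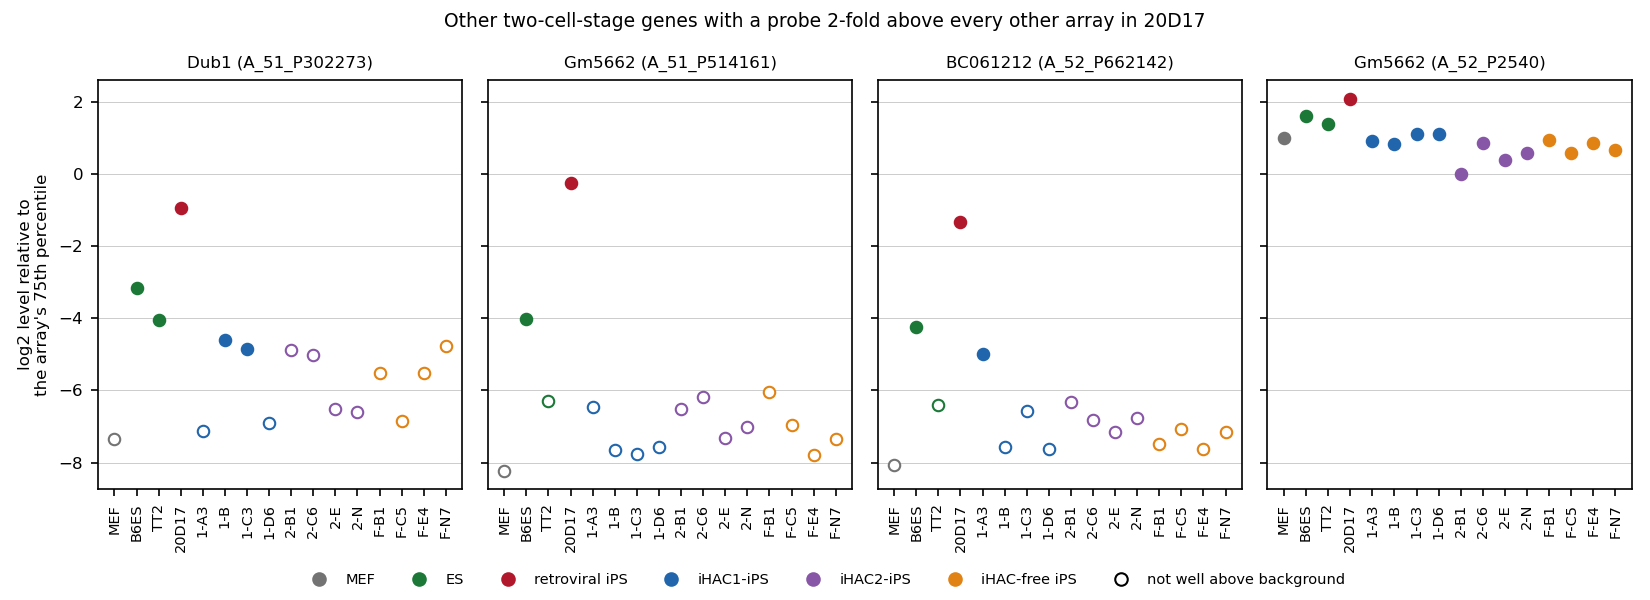
Log2 level relative to the 75th percentile of the array (y axis) on each of the 16 arrays (x axis) for the 3 probes of the other two-cell-stage genes that were at least 2-fold above every other array in 20D17, and the Gm5662 probe that entered the test, A_52_P2540. Each point is 1 array, and open points are not well above background. 20D17 is the highest point in each panel and B6ES the next.

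Some genes of the list were highest on other arrays. Cyp2b23 was highest in 2-C6, at -0.76, and D5Ertd577e and Usp17l5 were highest in F-N7, at -2.98 and -3.13, while 20D17 was well above background on none of these. These 3 were named after their values were seen. At the level of probes, 3 of the 19 tested probes of the list were at least 2-fold above every other array in 20D17. Over the 31395 tested probes with a value on all arrays this share was 0.319%. The probe LOC639910 (A_52_P165856), which the files list for transcripts of the Tcstv genes but name otherwise, was at -1.14 in 20D17 and -3.34 in B6ES, a 4.58-fold excess over every other array. It shared 13 bases in a row with A_52_P66425 and was not a member by name. Past a mismatch after these bases, its end goes on matching the start of A_52_P66425. The values of these probes are therefore not separate observations.

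Regulators known to act on this gene set in ES cells, such as Dppa2 and Dppa4, which activate it, and Trim28 and Rif1, which help to silence it, were taken from a list of 30 symbols, with 29 genes on the array and tested. Against ES cells limma called 9 of 29 lower in iHAC1-iPS, 2 lower in iHAC2-iPS and 0 in iHAC-free iPS cells, and none higher, beside 14.3%, 6.73% and 0.366% of all tested probes called in either direction. Without B6ES 5 were called in iHAC1-iPS cells. The 9 were Dppa2, Dppa4, Zfp42, Trim28, Rif1, Tet1, L3mbtl2, Trp53 and Morc3. On the log2 scale Dppa2 differed by -3.50 (SE 0.46, limma adjusted p = 0.00046), Dppa4 by -6.38 (SE 1.23, limma adjusted p = 0.0040) and Rif1 by -1.91 (SE 0.19, limma adjusted p = 0.00011). Both the activators and the silencers of the list were thus among the genes called lower. In iHAC2-iPS cells the genes called against ES cells were Zfp42, with a difference of -3.08, and Trp53, the target of the knockdown on iHAC2, with -1.17 (SE 0.30, limma adjusted p = 0.030). Both calls were lost without B6ES, without TT2, without 2-E and with the 2 groups alone in the fit. Trp53 differed by -1.05 in iHAC1-iPS cells, whose vector has no knockdown.

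Of the regulators 8 were called lower in iHAC1-iPS than in iHAC2-iPS cells and 1, Hdac2, higher, and 8 were called lower in iHAC1-iPS than in iHAC-free iPS cells, where 20.0% and 20.1% of all tested probes were called. Besides genes named above these included Mga in both comparisons (-1.08 and -1.25 on the log2 scale), Tet2 in the first (-1.59) and Tbx3 in the second (-2.50). Against their iHAC-free lines the iHAC2-iPS clones had 0 of 29 called. None of the 29 regulators had its highest level in 20D17, where 3.14% of all probes had theirs. The median difference over the 29 genes was -0.67 between iHAC1-iPS and ES cells and -0.24 between iHAC2-iPS and ES cells, beside 0.02 and 0.05 over all tested probes.

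The probes whose pattern was most like that of the Zscan4c probe A_52_P302671 were sought by Pearson's r over 11 arrays, those of ES, 20D17, iHAC2-iPS and iHAC-free iPS cells, among the 24443 probes that 6 or more of them measured above background. The Tcstv1 probe A_52_P66425 ranked 2 with r = 0.95. The 5 nearest named genes outside the families were Hdlbp (r = 0.96), AF020312 (0.94), Sema4c (0.93), Oprl1 (0.93) and the Tcstv-related LOC639910 (0.93). Without 20D17, over 10 arrays, r was 0.88 for Hdlbp, 0.82 for AF020312, 0.84 for Sema4c, 0.79 for Oprl1, 0.80 for LOC639910 and 0.85 for A_52_P66425. Hdlbp ranged over 0.78 log2 units on these arrays, against 4.20 for A_52_P66425, so a high r did not mean a change of like size. For Hdlbp, AF020312, Sema4c, Oprl1 and A_52_P66425 every array of the first session, ES and 20D17, was higher than every array of the second, so likeness and session cannot be told apart. Quantile normalization kept 1 of these 5 genes among the nearest, and Spearman's rank correlation kept 0.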

How the data were processed

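RNA of 16 cultures was hybridized by the authors to 16 Agilent whole mouse genome arrays of 1 colour (Cy3), and the spots were extracted with Feature Extraction, per the file headers in version 10.7.1.1 for the first scan session and 10.7.3.1 for the second. The deposited scanner files hold linear spot intensities not scaled between arrays, and in the processed signal the local background is already subtracted. The authors' deposited value table holds log2 values centred per probe, made in GeneSpring. Set against the scanner values its differences between arrays had a slope and a correlation of 1, and its column medians lay between -0.096 and 0.066. The zero of each of its probes stays unknown.

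Control spots and outlier flags were left out, spots of a probe were averaged, and the 75th percentile of the array was subtracted from log2 of the processed signal. Positions and gene names are those of the files (mm9), and current symbols were looked up through RefSeq accessions, which matched for all 8 probes. Probes well above background on at least 1 array were compared in 1 limma fit (limma 3.58.1, R 4.3.3) with 6 groups. Tests were checked on simulated data. Alternatives were normexp with an offset of 50, quantile normalization, the value table, no filter or a strict one, slide as a block, the compared groups alone, the clone of origin as a block, and leaving out each array. Lists were described by counts and medians. The rule for named genes was all 8 members, every gene of the other lists called in at least 1 comparison, and the 5 most similar named probes. Genes named beyond it are marked where they appear. The members and lists were chosen with earlier results of these data known, and settings and the limit to probes measured on another array for 20D17, and settings for single lines, were added after seeing the data. The iHAC-free lines come from the iHAC2-iPS clones of the same letter, per the study's table of sorted clones. Over all probes the deviations from the group means of parent and line correlated with r from -0.22 to 0.08. Scanner errors cover 1 spot, and the number of arrays limits the precision.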

Additional observations from a re-analysis of the deposited data

Results flagged for a closer look

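On the Tcstv1 probe A_51_P481777, F-E4 at -6.53 lay far below the other 3 iHAC-free lines, of which the nearest was at -5.04. F-E4 was not well above background there. This was 1 of 24 groups of 4 arrays looked at, and chance gives about 1 in 20. Without F-E4 the limma fit called this probe lower in iHAC1-iPS than in iHAC-free iPS cells.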

How the results depend on the processing

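Without 1 array at a time, limma called 0 to 4 of the 8 probes in iHAC1-iPS against ES cells, 0 to 1 in iHAC2-iPS against ES cells and 0 to 1 in iHAC1-iPS against iHAC-free iPS cells. Of the other two-cell-stage genes it called 1 to 3, 0 to 2, 0 to 2 and 1 to 4 in iHAC1-iPS against ES, iHAC2-iPS against ES, iHAC2-iPS against iHAC-free iPS and iHAC1-iPS against iHAC2-iPS cells. With normexp 0 members were called against ES cells in iHAC1-iPS and iHAC2-iPS cells, and 1, 2 and 1 of the other genes in the last 3 of these comparisons. Slide as a block gave 2 members in iHAC1-iPS and 1 in iHAC-free iPS cells, the compared groups alone gave 1 in iHAC1-iPS and 0 in iHAC2-iPS cells, and in iHAC2-iPS cells quantile normalization gave 3 and no filter 2. With the clone of origin as a replicate block the iHAC2-iPS and iHAC-free iPS cells had 0 members and 0 of the other genes called, and it changed no other call on a reported gene.

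With normexp the difference of iHAC2-iPS from iHAC-free iPS cells was 0.22 for A_52_P302671, 0.13 for A_52_P66425 and 0.15 for A_51_P481777, and of each line from its clone -0.22, -0.13 and -0.15. The difference of iHAC1-iPS from iHAC-free iPS cells was 0.18, 0.20 and 0.11 for the same probes. For A_52_P66425 the difference of iHAC1-iPS from iHAC2-iPS cells, -0.0065, was 0.067 with normexp, 0.18 with quantile normalization, 0.015 with the value table and 0.069 with slide as a block, and -0.25 to 0.39 without 1 array. Its difference of iHAC1-iPS from iHAC-free iPS cells was -0.59 to 0.041 without 1 array. The causes were not tested. Of 225 alternative values for single probes 188 kept direction and call. Most of the 225 belong to differences that the main fit did not call. The 18 that lost a call all fell on calls of A_52_P302671, A_52_P66425 and A_51_P481777 against ES cells. Of the 5 genes most like Zscan4c, 3 were kept with normexp, 1 with quantile normalization, 1 with all 16 arrays and 0 with Spearman's rank correlation. Of the 5 members that another array measured, 3 were past 2-fold in 20D17 also with normexp, quantile normalization and the value table, settings chosen after seeing the data. The regulators called in iHAC1-iPS against ES cells numbered 6 to 9 over the settings that kept all arrays of both groups. Of the 128 member levels 26 were well above background, and values below that mark have no reliable order.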
